A study of Citrullus lanatus with 6 samples.

Results

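Heat stress transcription factors are the DNA-binding proteins that switch on chaperone genes in plant cells under heat and other proteotoxic stress. Their genes were examined here in leaves of watermelon (Citrullus lanatus, cultivar Crimson Sweet). The members are the 9 genes, of 23568 in the expression table, whose description in the study's list of differentially expressed genes names a heat stress or heat shock transcription factor. The copy of that list read here held 1998 genes, all of them raised by salt in the study's own comparison of the same libraries. The members were thus selected on the study's fold changes between salt and control, and that choice fixed the direction of the salt response, and the salt values below are a description without a test. Factor genes that responded less, fell or did not respond were not analysed here.

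Seedlings 6 weeks old were lifted from their substrate and stood for 7 h with their roots in tubes of 300 mM NaCl (salt) or of purified (MilliQ) water (control). Each treatment had 3 leaf libraries from independent plants, so that lifting, washing and standing in liquid were shared by both treatments. The sample titles and a label field call the treated plants drought-stressed, while the series title, another field and the paper name salt, and they are called salt here. The plants carried no transgene, and the leaf was sampled whole. In whole leaves, fewer cells of a type and less RNA per cell cannot be told apart.

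In plants the factors fall into classes. Class A factors carry acidic motifs that activate transcription, and HSFA2 of Arabidopsis is a strongly heat-inducible member that prolongs the expression of chaperone genes. Class B factors lack those motifs, and Arabidopsis HSFB2b acts as a repressor of heat-inducible genes, while Arabidopsis HSFB4 is known for its part in root patterning. All bind heat shock elements in promoters, and HSP70 and HSP90, products of their own target genes, hold class A factors inactive in unstressed cells. Of the 9 genes, 3 were described as A2 (ClCG09G007390, ClCG10G019360 and ClCG08G017080), and 2 as class B (ClCG01G003040 as B-2b and ClCG05G007930 as B-4). The other 4 (ClCG01G016810, ClCG07G000500, ClCG05G004870 and ClCG10G015740) had no class in their description, and none is given to them here. Positions in the genome and sequences of these genes were not used here.

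Expression is given as FPKM, the fragments of a gene per kilobase of its length, scaled to the total fragments of the library. The totals behind the values, recovered as whole fragments, were 18838185 to 21258223 fragments per library, and depth overlapped between treatments. The libraries held RNA of green leaf. In them 32 genes of photosystems and antenna proteins took 1.64% to 2.74% of all FPKM in control and 0.0991% to 0.683% in salt. The study drew this list from these same libraries, and the paper cites it for genes lowered by salt. Nothing is therefore read from the lower share in salt. Differences are on the log2(FPKM + 0.5) scale from limma, which understates the change of weak genes. Of the 16638 genes that averaged 0.5 FPKM or more, 2266 were higher and 5684 lower in salt at an adjusted p below 0.05, a split that became 3724 and 3466 after median-ratio scaling and 3602 and 3809 after quantile normalization. Across the genes tested the median difference was -0.57, and -0.05 after median-ratio scaling.

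All 9 factor genes passed the expression filter and all 9 were called higher in salt, where 13.6% of all genes tested were called higher. ClCG10G015740 passed the filter only through its salt libraries, with means of 0.253 FPKM in control and 1.51 FPKM in salt. In all 9, every salt library stood above every control library, which held for 17.7% of all genes tested. Both counts restate how the genes were chosen, and nothing is read from them. The count was 8 of 9 when control replicate 1 or 2 or any of salt replicates 1 to 3 was left out, the gene lost being ClCG10G015740. Their log2 fold changes ran from 1.53 to 6.68 with a median of 3.43.

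**Figure D1:**
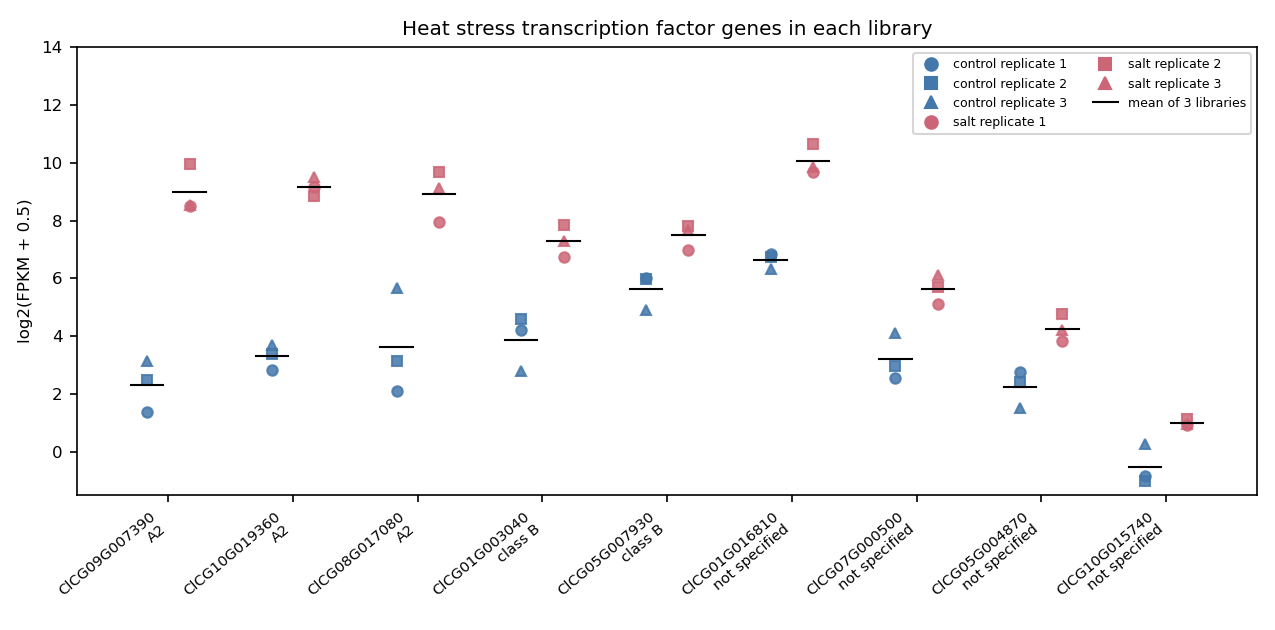
Expression of the 9 factor genes on the log2(FPKM + 0.5) scale, with 1 point per library and a bar at the mean of the 3 libraries of a treatment. The A2-described genes lie between 249 and 998 FPKM in salt, and control replicate 3 is the highest control library in 5 genes and the lowest in 4.

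The A2-described genes were at or below 12.3 FPKM in control leaves, except for ClCG08G017080 in control replicate 3 (50.0 FPKM, the 82.8th percentile), and above the 97th percentile in every salt library (97.7 to 99.4). ClCG09G007390 had 2.09, 5.03 and 8.25 FPKM in control replicates 1 to 3 and 365, 998 and 369 FPKM in salt replicates 1 to 3. Salt replicate 2 stood far above the other salt libraries, and the lowest salt library was still 44.2 times the highest control library. The means were 5.12 ± 3.08 and 577 ± 364 FPKM (SD, n = 3 each), and the log2 fold change was 6.68 with a standard error of 0.53. In rank among the genes tested, it stood at the 17.3rd to 36.5th percentile of the control libraries and above the 98th in every salt library (98.4 to 99.4).

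The other gene described as A2 in the same words, ClCG10G019360, had 6.66, 10.1 and 12.3 FPKM in the control and 573, 463 and 724 FPKM in the salt libraries. Its salt libraries were close to each other, with a ratio of 1.56 between the highest and the lowest, and replicate 2, the highest for ClCG09G007390, was the lowest here. Its log2 fold change was 5.87 (standard error 0.29), the smallest standard error of the 9 genes. Within a library, where scaling between libraries plays no part, the ratio of ClCG09G007390 to ClCG10G019360 was 0.314, 0.501 and 0.669 in control and 0.637, 2.16 and 0.509 in salt. The balance between these 2 genes therefore overlapped between treatments, and salt replicate 2 was the only library with more of ClCG09G007390.

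ClCG08G017080 had 3.85, 8.23 and 50.0 FPKM in the control and 249, 814 and 563 FPKM in the salt libraries. Control replicate 3 stood 13 times above control replicate 1, the widest range among control libraries of the 8 genes detected in each of them. The groups did not overlap, and the lowest salt library was 4.98 times the highest control library. The log2 fold change was 5.29 (standard error 0.85), 6.30 without control replicate 3 and 4.53 without control replicate 1. Of the 3 genes described as A2, this one had by far the highest level in control replicate 3.

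The class B-described genes were detected in control leaves, as the A2-described genes were, and showed smaller differences than those. The gene described as B-2b, ClCG01G003040, had 18.0, 23.5 and 6.41 FPKM in the control and 107, 227 and 156 FPKM in the salt libraries. Control replicate 3 was the lowest library, and the lowest salt library was 4.55 times the highest control library. Its log2 fold change was 3.43 (standard error 0.49). The gene described as B-4, ClCG05G007930, had 63.8, 61.8 and 29.2 FPKM in the control and 127, 224 and 205 FPKM in the salt libraries. Here too control replicate 3 was the lowest, and salt replicate 1, the lowest salt library, was 1.99 times control replicate 1. Its log2 fold change of 1.88 (standard error 0.37) was the second smallest of the 9, although it stood at the 71.1st to 86.8th percentile of the control libraries.

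Among the genes without a stated class, ClCG01G016810 was also the most abundant of all 9 factor genes examined, in both treatments. It had 115, 106 and 79.3 FPKM in the control and 825, 1619 and 914 FPKM in the salt libraries. The libraries of a treatment were close to each other beside the distance between treatments, with a lowest salt library 7.20 times the highest control library. Its log2 fold change was 3.43 (standard error 0.33), and it moved from the 89.7th to 93.1st percentile in control to the 99.4th to 99.6th in salt.

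ClCG07G000500 had 5.33, 7.24 and 16.9 FPKM in the control and 34.5, 51.4 and 68.6 FPKM in the salt libraries, a log2 fold change of 2.44 (standard error 0.44). Replicate 3 was the highest library in both treatments. ClCG05G004870 had 6.30, 4.83 and 2.38 FPKM in the control and 13.8, 26.5 and 17.9 FPKM in the salt libraries, a log2 fold change of 2.03 (standard error 0.41). In this gene control replicate 3 was the lowest library and salt replicate 2 the highest. For both genes the lowest salt library was only about double the highest control library, with ratios of 2.04 and 2.19.

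ClCG10G015740 was close to the limit of detection. Its values rested on 1, 0 and 10 fragments in the control and 20, 25 and 22 fragments in the salt libraries, which gave 0.0633, 0 and 0.697 FPKM and 1.38, 1.71 and 1.44 FPKM. At the depth of control replicate 2, a count of 0 allows up to 0.185 FPKM (3 fragments). The exact Poisson 95% interval of control replicate 3, 0.334 to 1.28 FPKM, overlapped the interval of each salt library, the nearest being 0.845 to 2.14 FPKM in salt replicate 1. These intervals cover counting error only. Its log2 fold change of 1.53 (standard error 0.47) depended on the constant added before taking logs, with 2.77 for a constant of 0.1 and 1.04 for a constant of 1, and limma voom on the fragments gave 3.62. The other 8 genes had at least 48 fragments in each library.

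**Figure D2:**
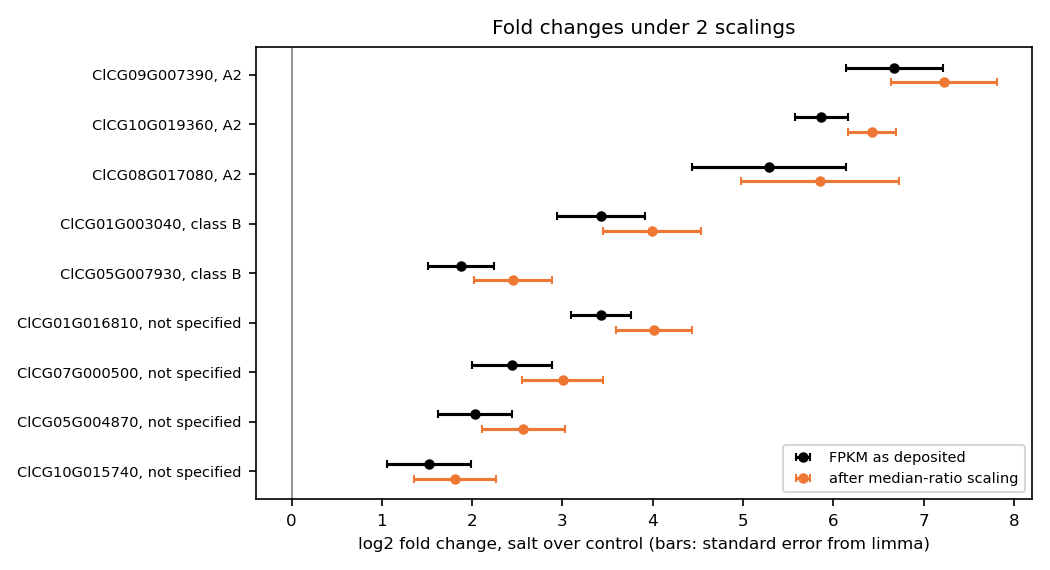
Log2 fold change of each factor gene, salt over control, with bars of 1 standard error from limma, for FPKM as deposited and after median-ratio scaling. All 9 values are above 0 under both scalings, and the 3 A2-described genes hold the 3 largest values (5.29 to 6.68 as deposited).

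The order of the 9 genes by level differed between treatments. In control leaves ClCG01G016810 (mean of 99.9 FPKM) stood first with no overlap with the next gene, ClCG05G007930 (51.6 FPKM). Below it the ranges of neighbours overlapped down to ClCG05G004870 (4.50 FPKM), although ClCG10G019360 was above ClCG09G007390, next in the order, within each of the 3 control libraries. ClCG10G015740 (0.253 FPKM) was the lowest in every control library. In salt-treated leaves ClCG01G016810 (1119 FPKM) again stood first. ClCG10G019360, ClCG09G007390 and ClCG08G017080 followed with means of 587, 577 and 542 FPKM and overlapping ranges. The class B-described genes ClCG05G007930 and ClCG01G003040 came next, with 185 and 163 FPKM, and overlapped each other but not the genes above or below them. ClCG07G000500 (51.5 FPKM), ClCG05G004870 (19.4 FPKM) and ClCG10G015740 (1.51 FPKM) were each separated from their neighbours in all 3 salt libraries.

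The summed FPKM of the 9 genes was 221, 227 and 205 in control replicates 1 to 3 and 2295, 4424 and 3019 in salt replicates 1 to 3. The control sums lay within a narrow band, and every salt sum was above them. The mean salt sum was 14.9 times the mean control sum. After median-ratio scaling this ratio of means was 23.4. As a share of all FPKM, the 9 genes lay between 0.0275% and 0.0291% in control and between 0.332% and 0.597% in salt.

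The make-up of that sum changed along with its size. The A2-described genes supplied 5.71%, 10.3% and 34.4% of it in control replicates 1 to 3 and 51.7%, 51.4% and 54.8% in salt replicates 1 to 3. The class B-described genes supplied 37.1%, 37.6% and 17.3% in control and 10.2%, 10.2% and 12% in salt. Control replicate 3 thus lay between the other control libraries and the salt libraries in both shares, while its sum was the lowest of all. The A2-described genes had 0.154, 0.273 and 1.98 times the FPKM of the class B-described genes in control and 5.08, 5.04 and 4.58 times in salt. These ratios are taken within a library and do not depend on scaling between libraries. ClCG01G016810 alone supplied 38.6% to 51.9% of the sum in control and 30.3% to 36.6% in salt. The share of ClCG05G004870 in salt differed little between libraries, at 0.59% to 0.60%.

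**Figure D3:**
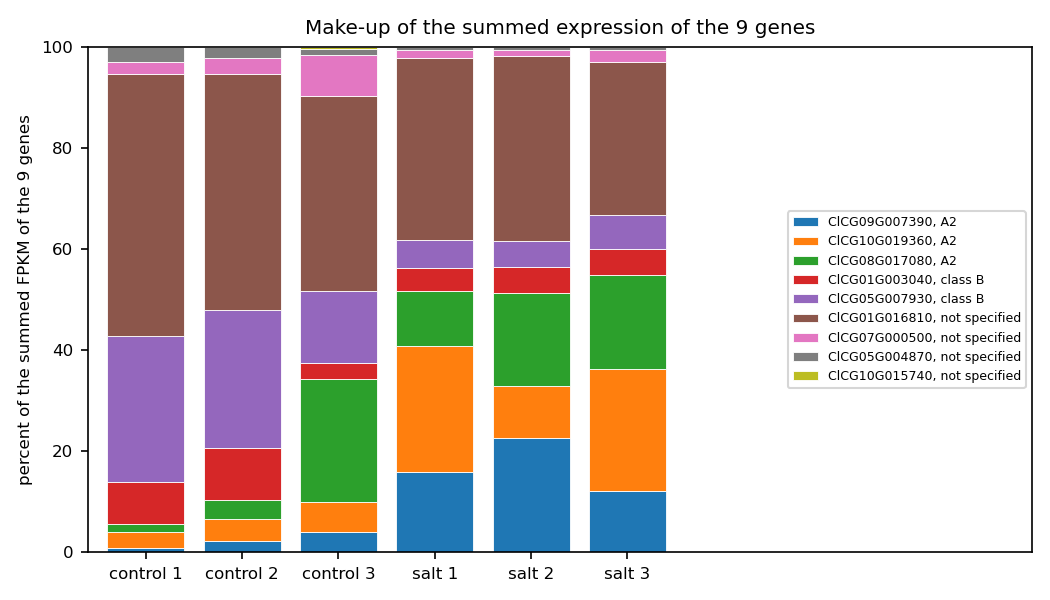
Share of each factor gene in the summed FPKM of the 9 genes, in percent, for each library. The 3 A2-described genes at the foot of the columns go from 5.71% to 34.4% in control to 51.4% to 54.8% in salt.

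Within the control leaves the factor genes did not vary as 1 block. Control replicate 3 was described separately after its values were seen. As deviations from the control mean on the log2(FPKM + 0.5) scale, ClCG08G017080 was at 2.02, ClCG09G007390 at 0.80 and ClCG10G019360 at 0.37 in that library. The class B-described genes ClCG01G003040 and ClCG05G007930 were at -1.07 and -0.73 there. Of the genes without a stated class, ClCG07G000500 and ClCG10G015740 were at 0.91 and 0.78, and ClCG05G004870 and ClCG01G016810 at -0.71 and -0.31. The median of all genes tested was 0.05 in the same library, and 99.6% of them were below ClCG08G017080 while 1.53% were below ClCG01G003040. The same 5 genes were highest and the same 4 lowest in control replicate 3 after median-ratio scaling. Of all genes tested, 42.6% were highest and 30.3% lowest in that library, and of the 2266 genes called higher, 49.4% were highest and 19.2% lowest in it. Control replicate 3 also had the largest photosystem and antenna share (2.74% against 1.64% and 1.68% in the other control libraries), and its part in these differences was not tested.

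Within the salt leaves, salt replicate 2 was the highest library for 7 of the 9 genes, the exceptions being ClCG10G019360 and ClCG07G000500, and salt replicate 1 the lowest for 8, the exception being ClCG10G019360. Among the 2266 genes called higher, salt replicate 2 was the highest in 41.6% and salt replicate 1 the lowest in 31.0%, and among all genes tested in 19.8% and 18.6%. After median-ratio scaling salt replicate 1 was the lowest for all 9 genes, and salt replicate 2 remained the highest for the same 7. The values were divided by 0.954, 0.690 and 0.881 in salt replicates 1 to 3. This lowers salt replicate 1 beside the other salt libraries in every gene. The shares of all genes after scaling were not computed, and nothing is read from the scaled counts. Salt replicate 2 was also the library with the smallest share of photosystem and antenna transcripts, 0.0991% against 0.683% and 0.381% in salt replicates 1 and 3. The part of that difference between plants in the factor genes was not tested.

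**Figure D4:**
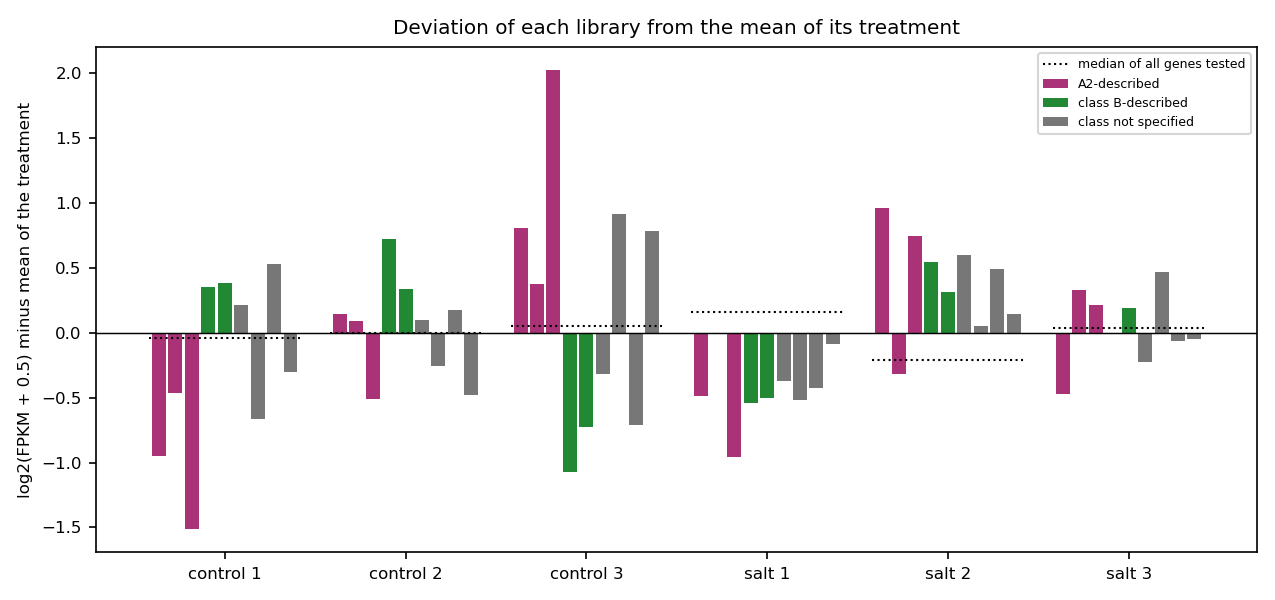
Deviation of each library from the mean of its treatment in log2(FPKM + 0.5), with 1 bar per factor gene in the order of the plot of expression by library, and a dotted line at the median of all genes tested. In control replicate 3 the A2-described genes reach 2.02 and the class B-described genes -1.07, while in salt replicate 1 all 9 bars are below 0.

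The spread between control plants was wide for 5 of the 9 factor genes beside other genes of like level (within 1 log2 unit of the gene's mean in that treatment). The SD of log2(FPKM + 0.5) over the 3 control libraries was 1.82 for ClCG08G017080, where the median of 5969 genes of like level was 0.26 and 99.5% of them were below it. It was 0.95 for ClCG01G003040, above 96.6% of 6126 genes, and 0.82 for ClCG07G000500, above 92.9% of 5641 genes. ClCG05G007930 (0.63) and ClCG09G007390 (0.89) exceeded 92.8% and 89.5% of genes of like level. ClCG01G016810 was close to the middle, with 0.28 against a median of 0.23. In salt leaves the factor genes were less set apart, from the 34.5th percentile for ClCG10G019360 to the 88.9th for ClCG08G017080, with ClCG10G015740 at the 2.32nd. In salt the SD of ClCG08G017080 was 0.87 and that of ClCG01G016810 was 0.52.

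The genes most like each factor over the 6 libraries were found by the root-mean-square difference between profiles of log2(FPKM + 0.5), each centred on its own mean. ClCG08G017080 was nearest to ClCG05G018130, a class II small heat shock protein gene (difference of 0.38), which had 132, 179 and 1322 FPKM in control and 12012, 22689 and 20395 FPKM in salt replicates 1 to 3. A class IV small heat shock protein gene, ClCG10G007510, was also among its nearest 3 genes (0.43), with 15.7, 12.6 and 158 FPKM in control. Small heat shock proteins bind unfolding proteins and keep them from aggregating. Both genes shared the high value of control replicate 3.

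ClCG09G007390 was nearest to ClCG03G004660 (0.29), described as a phosphoadenosine phosphosulfate reductase, followed by the WRKY gene ClCG07G015440 (0.43) and the myb domain gene ClCG05G010300 (0.45), both of transcription factor families. All 3 were highest in salt replicate 2. The WRKY gene had 0, 0.70 and 2.05 FPKM in control, so that the added constant shaped its profile. ClCG10G019360 was nearest to ClCG03G006100 (0.29), described as a lectin receptor-like kinase, which like it was lowest in salt replicate 2. The control values of ClCG03G006100, 0.141, 0.504 and 0.698 FPKM, were also near the added constant. The next genes, the F-box gene ClCG11G009790 (0.34) and ClCG03G015390 (0.37), described as of a transposase family, were instead highest in salt replicate 2. ClCG01G016810 was nearest to ClCG02G022200 (0.17), described as a stress-associated protein with A20 and AN1 zinc fingers. That gene had 233, 237 and 173 FPKM in control and 1427, 2965 and 1493 FPKM in salt. The next genes on its list were listed at 0 in all control libraries, so that the added constant set their profiles.

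ClCG05G004870 and ClCG05G007930 were the most alike of the 36 pairs of factor genes (0.18) and stood among each other's nearest 3 genes, together with ClCG04G004840, a Sec14p-like phosphatidylinositol transfer protein gene (0.16 and 0.12). ClCG01G016810 and ClCG01G003040 came next (0.42). For ClCG01G003040, the nearest 3 genes included a myb-like transcription factor gene (ClCG05G022990, 0.34) and a protein phosphatase 2C gene (ClCG05G007620, 0.37), with the same low value in control replicate 3. The nearest of ClCG07G000500 was ClCG10G008680 (0.17), described as unknown, and that of ClCG10G015740 was ClCG11G018240 (0.13), described as a fiber protein. These measures describe profiles over 6 libraries that share a treatment contrast, and most of each profile is the difference between treatments. Neighbours with control values near the added constant, among them ClCG04G004840 and ClCG05G022990, have profiles that it partly set.

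Chaperone genes, the kind of gene that such factors are known to switch on, were read from the same list of raised genes. Their direction was thus fixed in the same way. The chaperone list also holds the coactivator gene MBF1C, and whether the factors act on any listed gene was not tested. All 59 were called higher in salt (limma, adjusted p below 0.05), beside 13.6% of all genes tested, and their median log2 fold change was 3.43. All 9 HSP70 genes, which refold proteins, were higher with a median of 4.18. In this class ClCG11G011300 had both the highest level and the largest log2 fold change, 7.20. The 5 HSP90 genes had a median of 4.97, with ClCG03G017260 the most abundant and ClCG03G017240 the largest in change (6.06). The 10 small heat shock protein genes had a median of 4.37, with the class IV gene ClCG02G006430 at 7.19 and the most abundant, ClCG05G018130, at 5.81.

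The 4 ClpB genes, for disaggregating chaperones, had a median of 2.35, with ClCG04G011880 at 8.38. DnaJ proteins deliver clients to HSP70, and their 16 genes had a median of 2.27, the lowest of the classes, with ClCG09G005480 at 4.14 and the most abundant, ClCG03G011910, at 3.70. The 4 chaperonin genes had a median of 2.64, with ClCG06G007380 at 3.76 and the most abundant, ClCG02G021340, at 2.68. The 6 cochaperone genes reached 9.14 in ClCG07G015360, a BAG-like gene, and the coactivator gene MBF1C (ClCG11G002510) was at 8.83. Of 4 genes described as heat shock proteins without a class, ClCG04G005380 changed most (8.20) and ClCG10G002740 was the most abundant (4.59). Over the whole chaperone list the log2 fold changes ran from 1.24 to 9.14. Both extremes of the factor genes examined lay inside this range, with ClCG10G015740 at 1.53 and ClCG09G007390 at 6.68.

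The summed FPKM of the 59 genes of the chaperone list was 2899.9, 3066 and 6709 in control replicates 1 to 3 and 63102, 111443 and 81193 in salt replicates 1 to 3. In salt, MBF1C alone supplied 6038, 16409 and 8929 FPKM of these sums. Control replicate 3 was the highest control library and salt replicate 2 the highest salt library, the same order as for the sum of the A2-described genes. That sum was 12.6, 23.3 and 70.6 FPKM in control and 1187, 2274 and 1655 FPKM in salt. The class B-described sum had another order in control, with 81.8, 85.3 and 35.6 FPKM, and the same order as the chaperones in salt, with 234, 451 and 361 FPKM. Per FPKM of the 9 factor genes, the chaperone list had 13.1, 13.5 and 32.6 FPKM in the control libraries. In the salt libraries it had 27.5, 25.2 and 26.9 FPKM, so the control libraries ranged to both sides of the salt libraries. With 3 libraries per treatment, no correlation was computed.

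**Figure D5:**
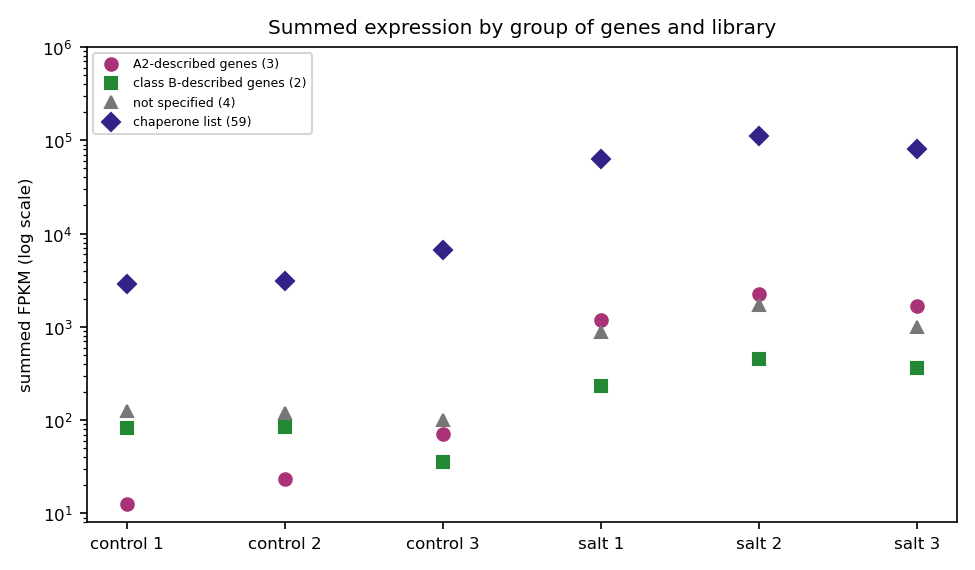
Summed FPKM, on a log axis, of the factor genes by described class and of the chaperone list in each library. The A2-described sum goes from 12.6 to 70.6 FPKM over the control libraries and the class B-described sum from 85.3 to 35.6, with the chaperone sum highest among controls in replicate 3 (6709 FPKM).

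The higher chaperone sum of control replicate 3 was not shared by all classes. Small heat shock protein genes summed to 609, 429 and 1977 FPKM in control replicates 1 to 3, of which ClCG05G018130 alone supplied 132, 179 and 1322 FPKM. Heat shock protein genes without a class summed to 288, 434 and 1383 FPKM, chaperonin genes to 645, 833 and 1624 FPKM, and cochaperone genes to 114, 131 and 186 FPKM. HSP70 genes summed to 498, 515 and 757 FPKM, and HSP90 genes to 80.7, 96.1 and 150 FPKM. ClpB genes were at 233, 222 and 230 FPKM and DnaJ genes at 403, 392 and 380 FPKM, and MBF1C was at 29.6, 14 and 20.8 FPKM. Of the 59 genes, 35 were highest and 9 lowest in control replicate 3, beside 42.6% and 30.3% of all genes tested. Of the 2266 genes called higher, 49.4% were highest and 19.2% lowest there. Without this library the log2 fold changes of the factor genes ran from 1.51 in ClCG05G007930 to 7.08 in ClCG09G007390. Their sign was fixed by the choice of genes.

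The factors share a conserved DNA-binding domain, and the paper bases FPKM on reads with a single place in the genome. How far reads of 1 factor gene could be lost or assigned to another was not tested here.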

How the data were processed

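Leaf RNA of 3 control and 3 salt-treated plants was sequenced as paired ends by the authors, and the reads were aligned to the Charleston Gray genome. The paper names Bowtie, TopHat and HTSeq, and the submitters' processing notes name fastp, HISAT2 2.1.0 and featureCounts. The deposited FPKM values were made by the authors per library, without scaling between libraries, and were used as they are. Whole fragments were recovered for 19557 genes by finding the library totals and gene lengths at which all values become whole (within 0.002 fragments or 1e-07 of the count). The step was tested on simulated data, and the fragments served for depth and a voom alternative.

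Genes averaging 0.5 FPKM or more were fitted with limma 3.58.1 (R 4.3.3) on log2(FPKM + 0.5) with a variance trend and Benjamini-Hochberg adjustment. Other values came from Python 3.11.15, numpy 2.4.6, pandas 2.3.3, scipy 1.17.1 and matplotlib 3.10.9. Gene IDs and descriptions, and no values, were taken from the study's supplementary tables. Members and lists were chosen with earlier results of these data known. Named genes were all members, the most abundant and the most changed gene of each chaperone class, and the nearest 3 genes to each member. Not all of the last are named in the text, and those left out were chosen with their values known. As a check of pairing, each library's deviations from its treatment mean were compared over genes. Pearson's r was 0.175, 0.105 and 0.128 for libraries numbered alike, and ran from -0.108 to -0.0391 otherwise. These values cannot settle whether the numbers pair the samples, because deviations within a treatment cancel and some matching must come out best. Neither labels nor paper say what a number stands for. The main fit and its standard errors left the numbers out, and the fit with them as a block was an alternative. With the block, the standard error of ClCG08G017080 fell from 0.85 to 0.54, and only that of ClCG10G015740 rose, from 0.47 to 0.52. The other alternatives were the constant, the filter, scaling, variance trend, array weights and each library left out. No sequence was used.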

Additional observations from a re-analysis of the deposited data

How the results depend on the processing

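No factor gene changed the sign of its log2 fold change under those of the 17 alternatives that fitted it. The genes were chosen as raised in these libraries, so nothing is read from this. Median-ratio scaling raised the median of the 9 genes from 3.43 to 4.0 and the ratio of their summed FPKM from 14.9 to 23.4, as it raised the median of all genes tested. Leaving out 1 library at a time gave 2.90 to 3.62 for the median, 12.2 to 17.1 for the ratio, 8 to 9 factor genes and 57 to 59 chaperone genes called higher, and 5329 to 7541 genes called in all, against 7950. The filter at 1 FPKM removed ClCG10G015740, the 1 factor gene whose values depth limited, and the cause of its lost calls was not tested. With the replicate number as a block, 8016 genes, 9 factor genes and 59 chaperone genes were called, and no call on a factor gene changed. With deposited FPKM, 28.5% of the calls were higher in salt, and 51.8% after median-ratio scaling.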
